A study of Mus musculus with 8 samples.

Results

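Metallothioneins are small cysteine-rich proteins that bind zinc and copper and buffer oxidants, and the genes grouped with them here sense zinc or carry it across membranes. The group held 7 genes, namely the metallothioneins Mt1, Mt2 and Mt3, the zinc-sensing transcription factor gene Mtf1, the zinc exporter gene Slc30a1 and the zinc importer genes Slc39a14 and Slc39a10. All 7 of these were measured, each by 1 probe set carrying that single gene symbol, among 19938 genes with values. The group was selected on measured values of this same comparison, the higher Mt1 and Mt2 levels in DJ-1 hearts, so the differences between the groups are given for its members as a description with their errors and without a test.

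The 8 samples were myocardium of male mice of the strain labelled CH3, with an age of 8 to 10 weeks and a weight of 25 to 30 g. Each sample is taken here as the heart of 1 mouse, which the labels do not state. In the DJ-1 group, 4 mice received recombinant DJ-1 protein, and in the placebo group 4 mice received phosphate-buffered saline, in each case 1 hour before coronary ligation. DJ-1 is a redox-sensitive protein encoded by Park7. All 8 hearts then underwent 45 minutes of left anterior descending occlusion and 2 hours of reperfusion, so both groups carry the same injury, and no uninjured or untreated heart was analysed here. The labels do not say which region of the heart each sample came from or whether it lay inside the ischaemic zone.

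Cells keep free zinc low. When it rises, the factor MTF-1 (the product of Mtf1) enters the nucleus, binds short metal response elements and raises transcription of Mt1, Mt2 and Slc30a1, and in mouse cells it represses Slc39a10. Mt1 and Mt2 are also induced by glucocorticoids, by oxidants and by cytokines of the interleukin-6 family, which act through the transcription factor STAT3. In mouse liver, interleukin-6 also induces Slc39a14.

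The stretches of DNA just before the start of these genes show where such elements lie. Promoter sequences came from RefSeq (build GRCm38.p6), and 6 of the 7 members had an entry, Slc39a14 being named only. The 250 bases before the annotated start are printed for Mt1 and Mt2, for the exporter gene Slc30a1 and, for contrast, for Mt3, whose known expression is mainly in brain. They read 5′ to 3′ on the plus strand, which is the coding strand of all 4 genes, and capitals mark the core of the metal response element, TGCACNC or TGCGCNC, searched on both strands with overlapping matches joined. They lie at chr8:94178839-94179088 (Mt1), chr8:94172368-94172617 (Mt2), chr1:191906531-191906780 (Slc30a1) and chr8:94152357-94152606 (Mt3).
Mt1: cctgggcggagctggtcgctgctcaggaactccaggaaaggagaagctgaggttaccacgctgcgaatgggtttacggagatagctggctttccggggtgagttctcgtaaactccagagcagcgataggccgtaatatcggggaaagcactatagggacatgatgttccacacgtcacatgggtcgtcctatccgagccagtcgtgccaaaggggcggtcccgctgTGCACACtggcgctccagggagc
Mt2: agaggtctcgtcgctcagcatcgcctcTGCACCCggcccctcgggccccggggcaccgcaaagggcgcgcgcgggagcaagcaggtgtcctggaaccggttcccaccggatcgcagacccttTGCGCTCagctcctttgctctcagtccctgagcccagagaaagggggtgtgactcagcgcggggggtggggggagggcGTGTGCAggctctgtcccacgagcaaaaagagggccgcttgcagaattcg
Slc30a1: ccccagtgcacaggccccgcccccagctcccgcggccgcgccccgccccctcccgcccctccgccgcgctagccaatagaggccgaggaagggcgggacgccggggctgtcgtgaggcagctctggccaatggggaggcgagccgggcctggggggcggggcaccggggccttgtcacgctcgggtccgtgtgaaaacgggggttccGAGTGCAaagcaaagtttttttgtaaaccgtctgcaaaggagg
Mt3: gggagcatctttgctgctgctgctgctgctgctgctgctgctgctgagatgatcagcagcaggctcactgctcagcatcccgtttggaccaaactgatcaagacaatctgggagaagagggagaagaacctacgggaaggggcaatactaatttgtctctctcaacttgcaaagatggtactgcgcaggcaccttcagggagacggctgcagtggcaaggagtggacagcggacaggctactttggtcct

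The core occurred 3 times before the start of Mt2, and 0.77% of 32841 promoter stretches of this length held at least 3. It occurred 1 time before the start of Mt1 and 1 time before that of Slc30a1, and 21.4% of all stretches held at least 1. The letters were not found in these stretches of Mt3, Mtf1 or either of the 2 annotated starts of Slc39a10. In the longer stretch of 300 bases, which runs on past the start, the counts were 3 for Mt1, 4 for Mt2, 2 for Slc30a1 and 1 for Mt3, and 1.31% of all stretches of that length held at least 3 cores and 25.7% at least 1. A STAT site TTCNNNGAA was found before 1 of the 2 starts of Slc39a10, and 7.02% of all stretches of 250 bases held it. These matches describe the letters of the sequence and no binding was measured.

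Expression values are log2 units, so a difference of 1 is a doubling of the signal. A guide to background was taken from olfactory receptor genes, as genes with little expected expression in myocardium, and lay at 4.74, the 95th percentile of their means. All 10 ventricular cardiomyocyte markers listed and 3 of 5 atrial ones lay above this guide, as did all 7 members of the zinc group. The atrial markers Myl7 and Myl4 stood at 7.08 and 10.40 in placebo replicate 2. The other arrays ran from 4.68 to 5.22 for Myl7 and from 8.59 to 9.01 for Myl4, and the reason was not tested. The arrays of DJ-1 replicates 3 and 4 had first principal component scores of 19.6 and 23.5, while the remaining 6 arrays scored from -15.0 to 5.31. These 2 arrays thus stood apart, so values that rest on them are also given without them. In limma, 0 of 19938 genes (0%) passed an adjusted p of 0.05 between DJ-1 and placebo hearts, with 1194 (5.99%) at an unadjusted p under 0.05, and the same fit with an intensity trend also called 0. No member is therefore called changed.

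Mt1 stood at 11.65, 11.66, 11.38 and 11.49 in DJ-1 replicates 1 to 4, against 11.20, 11.10, 11.05 and 10.91 in placebo replicates 1 to 4. Every DJ-1 heart was above every placebo heart, and the lowest DJ-1 value belonged to replicate 3. The means were 11.54 ± 0.13 in DJ-1 hearts and 11.06 ± 0.12 in placebo hearts (SD, n = 4 each). The difference was 0.48 (SE 0.10, 95% confidence interval 0.25 to 0.70), a ratio of 1.39. It was 0.59 without DJ-1 replicates 3 and 4 and 0.42 without placebo replicate 4, the highest and lowest of 15 alternatives. Mt1 was the 1 member of 7 whose groups did not overlap. Over all genes, 1.54% were without overlap on the higher side and 1.68% on the lower side, and nothing is read from this count because the choice of Mt1 used the same contrast.

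Mt2, the neighbour of Mt1 that encodes a closely similar protein, stood at 13.15, 13.02, 12.63 and 13.19 in DJ-1 replicates 1 to 4. The placebo replicates gave 12.74, 12.68, 12.30 and 11.73. The groups overlapped, because DJ-1 replicate 3 lay below placebo replicates 1 and 2, while placebo replicate 4 was the lowest of all 8 hearts. The difference was 0.64 (SE 0.21, 95% confidence interval 0.18 to 1.10), a ratio of 1.56, and it was 0.42 without placebo replicate 4. The spread among placebo hearts was 0.47 (SD), against 0.26 among DJ-1 hearts. Mt1 and Mt2 transcripts are alike in sequence, and how far their probes detect each other was not tested.

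Mt3, the metallothionein best known as a neuronal growth inhibitory factor, was at 6.40, 6.47, 6.84 and 6.94 in DJ-1 replicates 1 to 4 and at 6.47, 6.51, 6.41 and 6.21 in placebo replicates 1 to 4. The higher DJ-1 values were those of replicates 3 and 4, and the other pair of DJ-1 hearts lay within the placebo range. The group difference was 0.26 over all arrays (SE 0.13, 95% confidence interval -0.03 to 0.56), 0.17 without DJ-1 replicate 4 alone and 0.03 without both of those arrays. Of the 6 neuron and astrocyte markers listed, Gfap, Rbfox3, Tubb3 and Snap25 were not above the background guide, and the list mean ran from 4.66 to 4.88 in DJ-1 hearts and from 4.61 to 4.75 in placebo hearts. The part of nerve tissue in the Mt3 values was not tested. Mt4, the remaining mouse metallothionein, known from stratified epithelium, had means of 4.09 ± 0.19 in DJ-1 hearts and 3.84 ± 0.20 in placebo hearts (SD, n = 4 each), below the guide in both groups. Its higher DJ-1 values, 4.15 and 4.33, were again those of replicates 3 and 4.

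**Figure D1:**
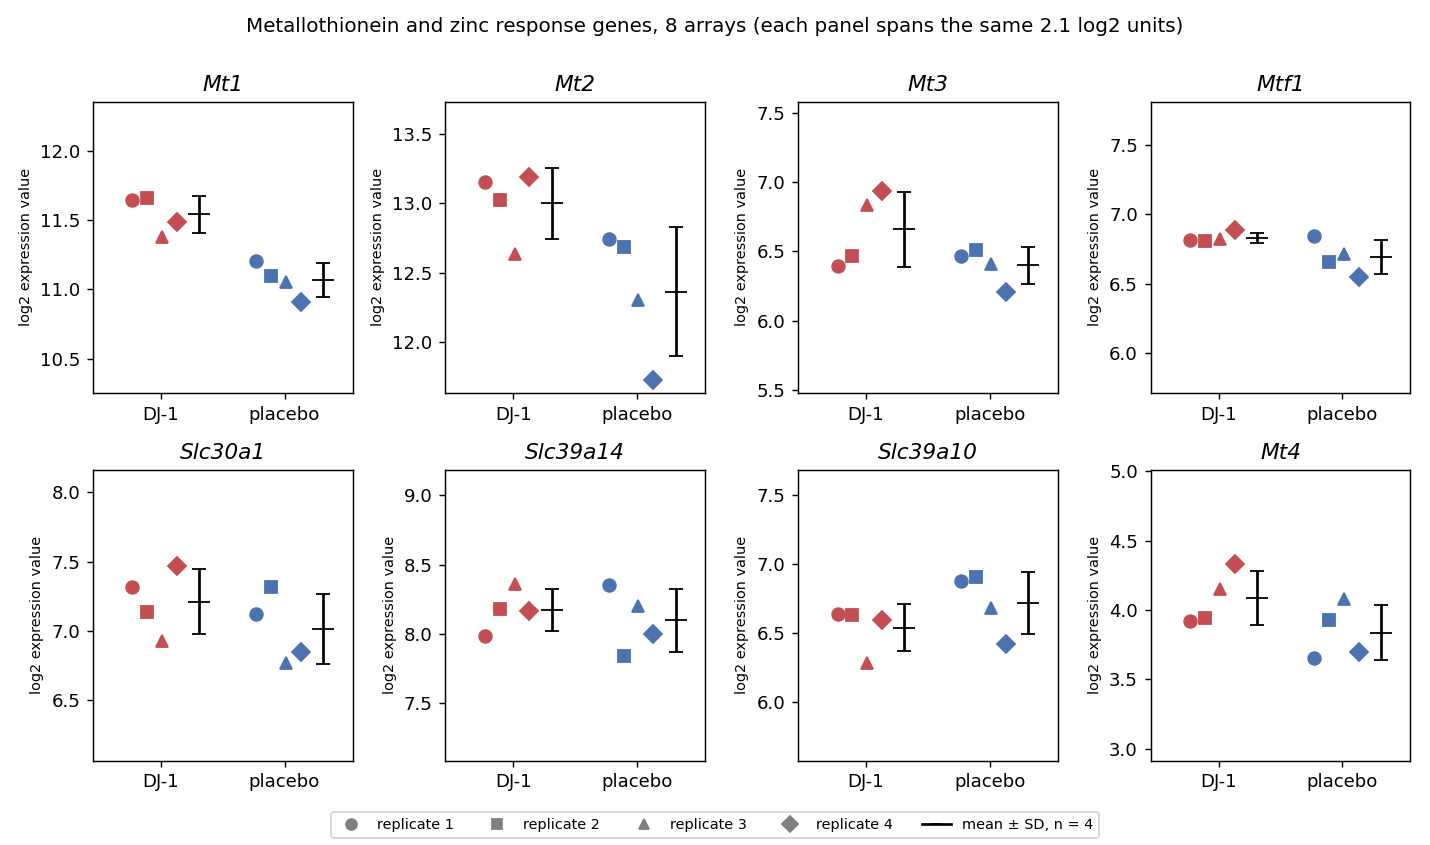
Log2 expression values of the 7 zinc response genes and Mt4 on each array, with DJ-1 arrays in red on the left and placebo arrays in blue on the right; marker shapes give the replicate number and black bars the mean ± SD (n = 4), and each vertical axis spans the same number of log2 units. Mt1 is the panel in which all DJ-1 points (11.38 to 11.66) lie above all placebo points (10.91 to 11.20).

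Mtf1, which encodes the zinc sensor itself, stood at 6.82, 6.81, 6.82 and 6.89 in DJ-1 replicates 1 to 4, against 6.84, 6.66, 6.72 and 6.55 in placebo replicates 1 to 4. Placebo replicate 1 lay among the DJ-1 values and the other placebo hearts lay below them. The DJ-1 hearts were tightly grouped, with an SD of 0.04 against 0.12 in placebo hearts. The difference was 0.14 (SE 0.09, 95% confidence interval -0.06 to 0.34), and 0.09 without placebo replicate 4.

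Slc30a1 encodes ZnT1, which moves zinc out of the cell. Its values were 7.32, 7.14, 6.92 and 7.47 in DJ-1 replicates 1 to 4 and 7.12, 7.32, 6.77 and 6.85 in placebo replicates 1 to 4. The ranges overlapped over most of their width, and the difference was 0.20 (SE 0.15, 95% confidence interval -0.13 to 0.52). It was 0.11 without DJ-1 replicate 4, 0.12 without placebo replicate 3 and 0.30 without placebo replicate 2. Among the importers, Slc39a14, whose product ZIP14 also carries iron and manganese, had 7.98, 8.18, 8.36 and 8.16 in DJ-1 replicates 1 to 4. The placebo replicates had 8.35, 7.84, 8.20 and 8.00, and the means differed by 0.07 (SE 0.13, 95% confidence interval -0.20 to 0.35), less than the SD within either group. With each array left out the value ran from -0.01 without placebo replicate 2 to 0.16 without placebo replicate 1, so 1 heart turned its sign.

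Slc39a10, which encodes the plasma membrane importer ZIP10, was the 1 member with a lower mean in DJ-1 hearts. It stood at 6.64, 6.63, 6.29 and 6.60 in DJ-1 replicates 1 to 4 and at 6.87, 6.90, 6.68 and 6.42 in placebo replicates 1 to 4. All of the DJ-1 hearts lay below placebo replicates 1, 2 and 3, and placebo replicate 4 lay below 3 DJ-1 hearts. The difference was -0.18 (SE 0.13, 95% confidence interval -0.46 to 0.10), -0.08 without DJ-1 replicates 3 and 4, -0.10 without DJ-1 replicate 3, -0.12 without placebo replicate 2 and -0.28 without placebo replicate 4. In all, the DJ-1 mean was the higher one for 6 of the 7 members, and for 52.5% of all genes, while the members' median difference was 0.20, against 0.01 over all genes. The choice of members used this contrast, so these counts describe the members and support nothing.

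The other zinc transporters form a list that was taken whole, without regard to how its genes moved. It holds the 21 Slc30 exporters and Slc39 importers outside the group, all of which were measured and 18 of which lay above the background guide. None of them (0 of 21) passed in limma at an adjusted p of 0.05, and 0 reached an unadjusted p of 0.05, where 5.99% of all genes did. A higher mean in DJ-1 hearts was found for 13 and a lower mean for 8, and the median difference was 0.02, with a range from -0.12 to 0.23.

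The 3 with the differences of largest size above the guide were the vesicular exporter gene Slc30a3, Slc30a6 of the early secretory pathway, and Slc30a4. Slc30a3 had means of 5.84 ± 0.33 in DJ-1 hearts and 5.60 ± 0.13 in placebo hearts (SD, n = 4 each). Its higher DJ-1 values were 5.89 and 6.28 in replicates 3 and 4, against 5.62 and 5.55 in replicates 1 and 2. Slc30a6 was at 7.36, 7.34, 7.19 and 7.31 in DJ-1 replicates 1 to 4 and at 7.19, 7.16, 7.03 and 7.12 in placebo replicates 1 to 4, a difference of 0.18 (SE 0.09). The groups of Slc30a6 met where DJ-1 replicate 3 and placebo replicate 1 had nearly the same value. Slc30a4 differed by -0.12 (SE 0.11).

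**Figure D2:**
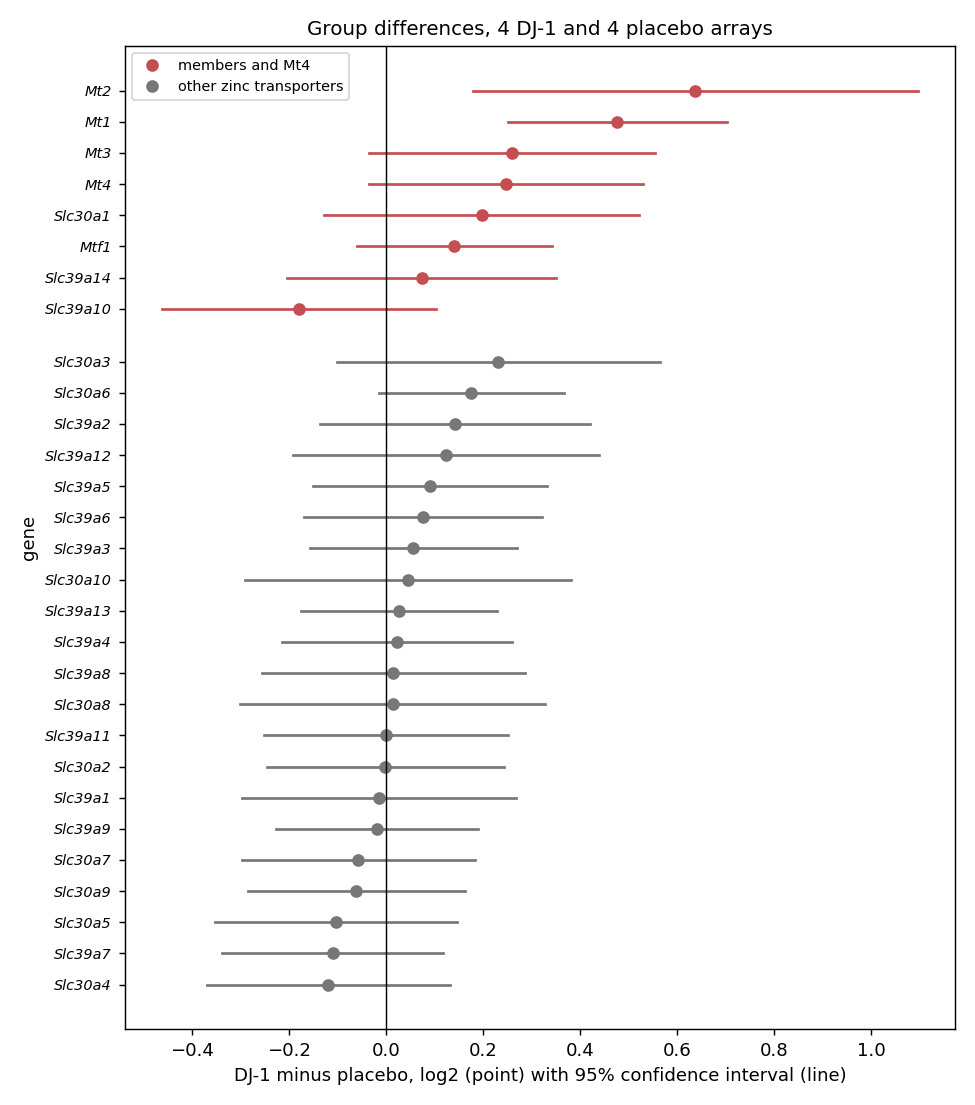
Differences between DJ-1 and placebo hearts on the log2 scale (points) with 95% confidence intervals from the limma fit (lines), for the zinc response genes and Mt4 in red and for the 21 other zinc transporters in grey. The intervals of Mt1 and Mt2 lie above 0, those genes having been picked for this, and the interval of every other gene shown spans 0.

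The 4 metallothionein genes lie next to each other on mouse chromosome 8 in the order Mt4, Mt3, Mt2, Mt1. The 5 protein-coding neighbours on each side, a set added after the values had been seen, include 9 measured genes. Those before the cluster were Gnao1 at -0.04, Nudt21 at -0.01, Ogfod1 at 0.03 and Bbs2 at 0.04. After it came Nup93, a nuclear pore gene, at -0.10, Slc12a3 at 0.08, the endoplasmic reticulum stress gene Herpud1 at 0.22 (SE 0.20), Nlrc5 at 0.21 (SE 0.14) and Cpne2 at -0.04. All 9 of these had overlapping groups, and the confidence interval of each spanned 0. Over all genes, 1.54% were without overlap on the higher side and 1.68% on the lower side. In limma 5.99% had an unadjusted p under 0.05, so most genes would give the same, and nothing is read from these counts. The genes bordering the cluster, Bbs2 and Nup93, had intervals of -0.17 to 0.25 and -0.28 to 0.09. Nlrc5 stood at 7.96, 7.96, 8.48 and 8.27 in DJ-1 replicates 1 to 4, against a placebo mean of 7.96. Its difference thus came from DJ-1 replicates 3 and 4.

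**Figure D3:**
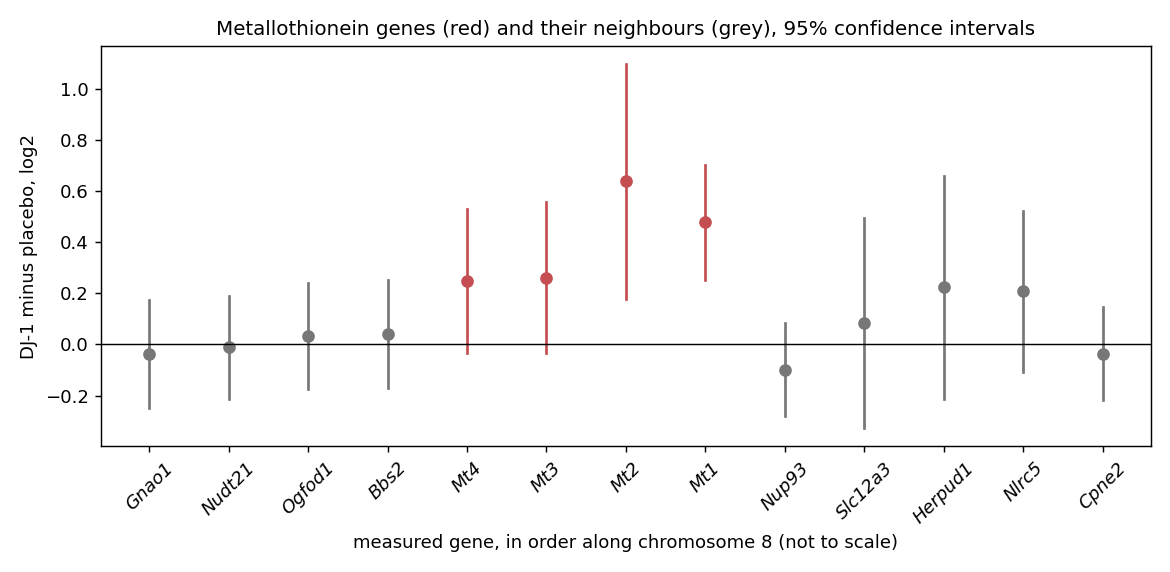
Differences between DJ-1 and placebo hearts (log2, points) with 95% confidence intervals (lines) for the metallothionein genes in red and the 9 measured neighbours in grey, placed in their order along chromosome 8 and not to scale. Mt2 and Mt1 stand at 0.64 and 0.48, and the neighbours lie between -0.10 and 0.22.

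Hearts of 1 group also differed among themselves, and that variation was not used to pick the genes. After each group's mean was subtracted, Mt1 and Mt2 varied in the same direction over the 8 arrays (Pearson r = 0.80, exact permutation within groups p = 0.024; Spearman rho = 0.69, exact permutation p = 0.075). Adjusted over the 21 pairs of members, the Pearson p was 0.170 and the Spearman p 0.314, so the relation did not pass. Without DJ-1 replicate 3 and placebo replicate 4, the arrays farthest from the median of Mt1, r was 0.30. Leaving out DJ-1 replicate 3 alone gave 0.74, and placebo replicate 4 alone 0.69. Setting aside the farthest arrays narrows the spread of Mt1, which can itself lower r, so how far the relation rests on them is not settled. Without DJ-1 replicates 3 and 4, r was 0.94 (exact permutation p = 0.042). With the replicate number as a block, r was 0.59 (exact permutation p = 0.413).

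The strongest of the 21 relations by Pearson r was that of Mt2 with Slc39a10 (r = 0.97, exact permutation p = 0.019, adjusted 0.170; rho = 0.90, exact permutation p = 0.033, adjusted 0.231), and r was 0.86 without placebo replicate 4 and DJ-1 replicate 3. Within groups, Mt2 and Slc39a10 thus varied in the same direction, in a relation that did not pass after adjustment. Among DJ-1 hearts, replicate 3 was lowest in both genes, while replicate 4 was highest in Mt2 but below replicates 1 and 2 in Slc39a10. Between groups, the mean of Slc39a10 was lower and that of Mt2 higher in DJ-1 hearts. Mt2 with Slc30a1 gave r = 0.78 (exact permutation p = 0.050, adjusted 0.226; rho = 0.86, exact permutation p = 0.028, adjusted 0.231), and 0.88 without placebo replicate 4 and DJ-1 replicate 3. Mt1 with Mt3 gave r = -0.31 (exact permutation p = 0.484; rho = -0.45, exact permutation p = 0.333). None of the 21 pairs passed after adjustment, the smallest adjusted Pearson p being 0.146, for Mt1 with Slc39a10.

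The genes whose deviations were most like those of Mt1, among 12945 genes above the guide left after members and genes with Gm, Rik, Olfr, Vmn, Mir or Snor names were set aside, were Timp1, an inhibitor of matrix metalloproteinases (r = 0.98), the receptor gene Eda2r (0.98), the interleukin-4 receptor gene Il4ra (0.98), Cacul1 (0.98) and Clec2d (0.98). For Mt2 they were the acid phosphatase gene Acp5 (r = 0.99), the protein C receptor gene Procr (0.98), Avil (0.96), Trim47 (0.96) and the phosphatase regulator gene Ppp4r1 (0.96). With 8 arrays and this many genes, high values of r arise in number: 0.827% of the genes searched had r of at least 0.9 with Mt1 and 0.34% with Mt2. Among all 13692 other genes above the guide, Mt2 ranked 432nd in likeness to Mt1, and Mt1 ranked 228th in likeness to Mt2. These correlations are descriptions over 8 arrays that share their hearts and their normalization.

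Interleukin-6 cytokines and STAT3 are known inducers of metallothioneins, and 18 genes of this pathway were listed, all measured and all above the guide. In limma 0 of the 18 passed an adjusted p of 0.05 and 0 had an unadjusted p under 0.05, against 5.99% of all genes. The DJ-1 mean was the higher one for 16, and for 52.5% of all genes, and the median difference was 0.33. The groups of all 18 overlapped, while over all genes 1.54% were without overlap on the higher side and 1.68% on the lower side. The cytokine genes Osm and Il6 differed by 0.57 (SE 0.32) and 0.54 (SE 0.54), and Socs3, which feeds back on the pathway, by 0.53 (SE 0.30). The mean of the list was 7.88, 8.11, 7.29 and 7.76 in DJ-1 replicates 1 to 4 and 7.87, 7.62, 7.28 and 7.09 in placebo replicates 1 to 4.

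Within groups this list mean and Mt1 varied together (r = 0.94, rho = 0.95, exact permutation p = 0.00174 for each, the smallest that arrangements within groups allow). Adjusted over 30 relations, of 15 lists with Mt1 and Mt2, the p was 0.0521, the lowest this design allows for 1 relation at that limit, so it did not pass 0.05. The r was 0.83 without DJ-1 replicate 3 and placebo replicate 4, 0.93 without DJ-1 replicates 3 and 4, and 0.90 with the replicate block (exact permutation p = 0.0799). Timp1 and Il4ra, which were among the genes most like Mt1 above, are members of this list and enter its mean, so they are no separate support. Eda2r, Cacul1 and Clec2d, also named there, are not in the list. With Mt2 the list gave r = 0.83 (exact permutation p = 0.028, adjusted 0.278; rho = 0.81, exact permutation p = 0.052, adjusted 0.463), and 0.59 without the 2 farthest arrays. These relations were computed after the members' values had been seen.

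**Figure D4:**
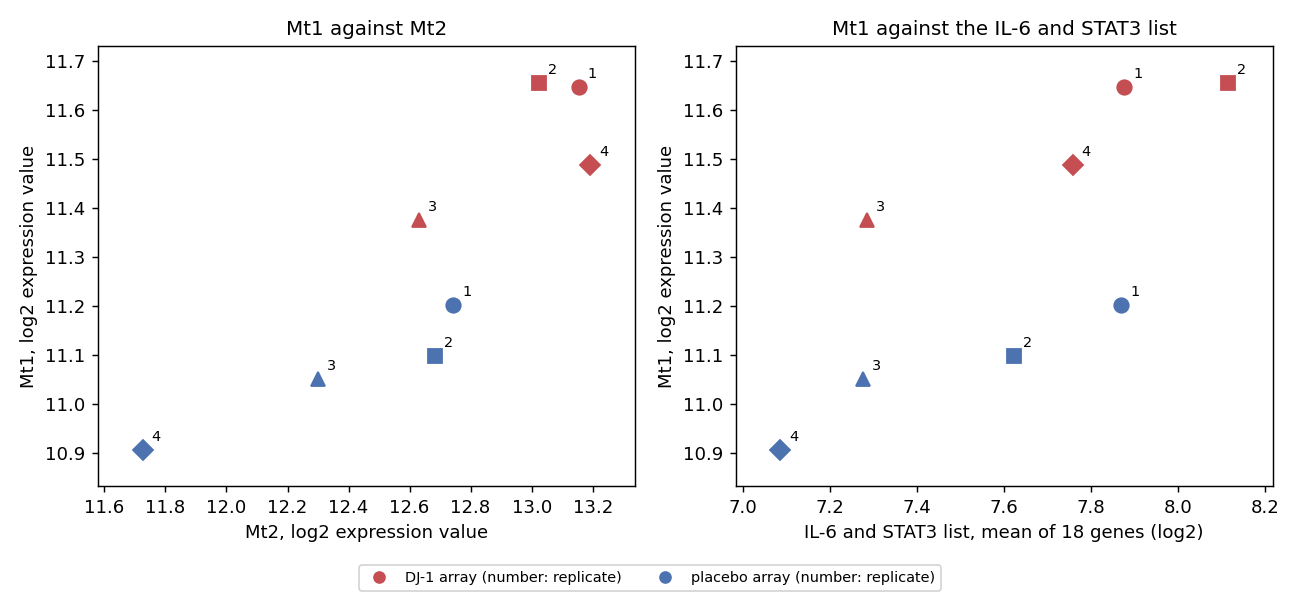
Mt1 on each array (vertical axes, log2) against Mt2 (left, log2) and against the mean of the 18 interleukin-6 and STAT3 genes (right, log2), with DJ-1 arrays in red, placebo arrays in blue and the replicate number beside each point. In each panel the lowest Mt1 value of either group (11.38 among DJ-1 arrays, 10.91 among placebo arrays) goes with that group's lowest value on the horizontal axis. The separation of the groups along the vertical axis follows from the choice of Mt1.

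Glucocorticoids also induce metallothioneins, and 12 of 13 listed genes of this response, including the receptor gene Nr3c1, were measured, all above the guide. In limma 0 of the 12 passed an adjusted p of 0.05. At an unadjusted p under 0.05, 2 were higher, where 3.63% of all genes were, and 1 was lower, where 2.36% were. The higher genes were Zbtb16, a zinc finger repressor gene, with 9.57 ± 0.19 in DJ-1 hearts and 8.76 ± 0.77 in placebo hearts (SD, n = 4 each), and the kinase gene Map3k6, with 6.80 ± 0.15 in DJ-1 hearts and 6.31 ± 0.23 in placebo hearts (SD, n = 4 each). The lower one was Nr3c1 itself, with a difference of -0.26 (SE 0.12). Fkbp5, which binds the receptor complex, differed by 0.48 (SE 0.23). Placebo replicate 4 was the lowest heart for Zbtb16 (7.73), Map3k6 (6.07) and Fkbp5 (6.11), and no difference is given without it. For Zbtb16, placebo replicate 1 (9.53) lay above DJ-1 replicates 2 and 3 (9.34 and 9.51). The DJ-1 mean was the higher one for 11 of the 12, all but Nr3c1, and for 52.5% of all genes. The median difference of the list was 0.21. The list mean ran from 8.36 to 8.62 in DJ-1 hearts and from 8.12 to 8.49 in placebo hearts, and its r with Mt1 within groups was -0.32 (exact permutation p = 0.453; rho = -0.50, exact permutation p = 0.262).

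Markers of neutrophils, which enter reperfused myocardium, varied widely among these hearts. The mean of each of the 12 listed markers was higher in DJ-1 hearts, as was that of 52.5% of all genes, and the median difference was 0.77. The 12 markers were read from the same hearts, so they are not separate results. At an unadjusted p under 0.05 in limma, 2 were higher, where 3.63% of all genes were. These were Lcn2 and Ltf, of which Ltf was not above the guide. The list mean was 7.07, 7.34, 6.18 and 5.68 in DJ-1 replicates 1 to 4. It was 5.95, 7.08, 5.57 and 4.76 in placebo replicates 1 to 4, so placebo replicate 4 was lowest of all. Its r with Mt1 within groups was 0.72 (exact permutation p = 0.069, adjusted 0.373; rho = 0.71, exact permutation p = 0.076, adjusted 0.463), and it turned to -0.10 with the replicate block (exact permutation p = 0.901). The part of neutrophils in the metallothionein values was not tested, and in whole tissue a change in the number of cells of a type and a change in RNA per cell cannot be told apart. Among 5 measured markers of hepatocytes, from an organ known for abundant metallothionein, Apoa1 lay above the guide with a mean of 5.73, and Alb, Ttr, Fgb and Cyp2e1 did not. Cyp2e1 nevertheless reached 5.85 in placebo replicate 2, the heart with the highest Myl7 and Myl4.

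Markers of the supporting cells of the heart mostly had lower means in DJ-1 hearts, and none passed an adjusted p of 0.05 in limma. The mean was lower for all 8 fibroblast markers, and for 9468 of all 19938 genes, and the median difference of these markers was -0.16. Of them, 2 (Lum and Gsn) had an unadjusted p under 0.05 on the lower side, where 2.36% of all genes did. The fibroblast list mean ran from 8.57 to 8.74 in DJ-1 hearts and from 8.72 to 8.91 in placebo hearts. Of the 8 smooth muscle and pericyte markers 7 had lower means, with a median difference of -0.14, and 2 (Pdgfrb and Kcnj8) had an unadjusted p under 0.05. That list mean ran from 8.45 to 8.60 in DJ-1 hearts and from 8.58 to 8.76 in placebo hearts. Within groups it ran against Mt2 (r = -0.84, exact permutation p = 0.028, adjusted 0.278; rho = -0.74, exact permutation p = 0.069, adjusted 0.463), with r of -0.24 without the 2 farthest arrays. Ventricular cardiomyocyte markers also ran against Mt2 (r = -0.78, exact permutation p = 0.042, adjusted 0.312; rho = -0.57, exact permutation p = 0.182, adjusted 0.463), with r of -0.21 without the 2 farthest arrays. Neither relation passed after adjustment over the 30 relations, and the part of these cell types in the metallothionein values was not tested.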

How the data were processed

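Myocardial RNA of 8 samples (4 DJ-1, 4 placebo) was hybridised to Affymetrix arrays, 1 per sample, and each sample was taken as 1 mouse. The authors deposited log2 values of 35556 probe sets made with RMA, per the submitters' processing notes. Version, options and annotation build were not given in the sources used here. Scan dates were not used. No further normalization was applied. Probe sets with 1 gene symbol in the platform annotation numbered 21789, those with several 1621 and those with none 12146. The probe set with the highest mean was kept for each of 19938 genes. Array medians ran from 5.25 to 5.35, no pair of arrays was identical (0 pairs), and the number of arrays limits the precision (median SE 0.117).

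Groups were compared with limma 3.58.1 in R 4.3.3 (two-sided, no covariate, Benjamini-Hochberg over all genes), checked on simulated data. The p-values measure the spread between these samples, which the labels number without saying that each came from its own mouse. Members and lists were chosen with earlier results of these data known. The genes named were the members and Mt4, the 3 of largest difference above the background guide in each of the 3 pathway lists, and the 5 most like Mt1 and Mt2. Nr3c1, the chromosome 8 neighbours and marker genes were named after their values were seen. Relations across arrays used deviations from group means and exact permutation within groups. Alternatives covered normalization, probe set choice, a filter on low values, an intensity trend, the replicate number as a block, and each array left out. Promoter sequences are from RefSeq, GRCm38.p6.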

Additional observations from a re-analysis of the deposited data

Results flagged for a closer look

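Within the DJ-1 group, 1 heart lay far from the other 3 for each of 2 genes, by Dixon's ratio of its gap to the group's whole range, past its 95% critical value. For Mtf1 the ratio was 0.838, with DJ-1 replicate 4 at 6.89 and the others between 6.81 and 6.82. For Slc39a10 it was 0.889, with DJ-1 replicate 3 at 6.29 and the others between 6.60 and 6.64. The ratio was computed for 34 groups of 4 arrays, and chance passes about 1 in 20 groups.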

How the results depend on the processing

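The differences of Mt1, Mt2, Mt3, Mtf1, Slc30a1 and Slc39a10 kept their sign under all 15 alternatives run, with ranges of 0.42 to 0.59 for Mt1 and 0.42 to 0.76 for Mt2, while that of Slc39a14 changed sign in 2 of 15 (-0.01 without DJ-1 replicates 3 and 4 and -0.01 without placebo replicate 2). The count of genes called by limma stayed at 0, except 1 (Pramel27) without DJ-1 replicate 3, so leaving out each array gave 0 to 1; genes at an unadjusted p under 0.05 numbered 833 to 1480 when each array was left out and 781 of 13693 among genes above the background guide. Of the 21 other zinc transporters, 1 reached an unadjusted p under 0.05 with quantile normalization and 1 with cyclic loess (Slc30a6 in each), and leaving out each array gave 0 to 1 (Slc30a6 without DJ-1 replicate 3, Slc39a2 without placebo replicate 2). The correlation of Mt1 with Mt2 was 0.78 with quantile normalization (exact permutation p = 0.0573), 0.59 with the replicate block and 0.69 to 0.89 when each array was left out; fewer arrays also allow fewer arrangements. The correlation of neutrophil markers with Mt1 was -0.10 with the replicate block, and the cause was not tested. Same-numbered hearts did not deviate together in every pair (correlations 0.005 to 0.177, and 1 of 8 arrays correlated best with its own number), so the numbers were not treated as pairs, and the block changed no count of called genes. Median centring of each array gave a median difference over all genes of -0.03, against 0.01 as deposited.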
